A study of Mus musculus with 16 samples.

Results

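The genes described here are the collagens and the matrix genes that mark fibroblasts. They comprise 44 mouse genes whose symbol has the form of a collagen chain (Col, a type number, a and a chain number) and 8 further genes: decorin (Dcn), lumican (Lum), periostin (Postn), fibronectin (Fn1), osteonectin (Sparc), biglycan (Bgn) and the receptors for platelet-derived growth factor, Pdgfra and Pdgfrb. These 52 genes were found by symbol among the 55356 identifiers of the count table. RNA came from primary dorsal root ganglion (DRG) neurons, the sensory neurons of the body wall and limbs, cultured from CD1 mouse embryos in medium with nerve growth factor. The medium also held 5-fluoro-2'-deoxyuridine and uridine, which keep dividing cells such as fibroblasts and Schwann cells from expanding, and the plates carried poly-D-lysine and laminin. At 6 days in vitro the cultures of all 4 groups received a first addition and, 15 min later, a second one that stayed for 16 h. The DMSO group received DMSO and then DMSO, the nocodazole group DMSO and then 200 nM nocodazole, the inhibitor group 500 nM GNE3511 and then DMSO, and the inhibitor plus nocodazole group 500 nM GNE3511 and then 200 nM nocodazole. Nocodazole makes microtubules disassemble, and GNE3511 is a small-molecule inhibitor of dual leucine zipper kinase (DLK), a kinase that signals axonal stress through JNK. Each group had 4 samples, all on the CD1 background. Whether the 4 came from separate cultures is not given in the labels, and every p-value below covers only the variation among them, which may be technical. Since a single compound was used at a single dose, actions on DLK and on other kinases cannot be told apart.

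Collagens are secreted or membrane-bound proteins built from triple helices of 3 chains. Fibrillar collagens (types I, II, III, V, XI, XXIV and XXVII) form or nucleate fibrils, type IV forms the network of basement membranes, type VI forms beaded filaments, and other types coat fibrils or span the cell membrane. In a peripheral ganglion, fibroblasts make most of types I and III with decorin and lumican, Schwann cells and satellite glia make basement membrane and types such as V, and neurons express a small set that includes the transmembrane collagens Col23a1 and Col25a1.

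Total counts ran from 30987962 to 43321421 per library, and the 52 genes together took 0.0152% to 0.0286% of them. Mitochondrially encoded transcripts took 0.765% to 1.78%. Levels are given as CPM, which are read counts scaled to a common normalised library size, and values of a gene are listed in the order of replicates 1 to 4. A call means an edgeR quasi-likelihood adjusted p below 0.05 over all 19156 genes tested, and log2 changes carry their standard error (SE). Of the 52 genes, 39 passed the filter on low counts and were tested. The 13 others (Col4a5, Col4a6, Col8a1, Col8a2, Col9a1, Col9a2, Col13a1, Col15a1, Col19a1, Col22a1, Col28a1, Col6a4 and Lum) never exceeded 14 counts in a library. Bgn, Col14a1, Col6a3, Col6a5, Col17a1 and Col4a3 passed narrowly, with only 4 to 6 of the 16 libraries at the minimum. For Col14a1, 3 of these 4 were nocodazole libraries. Inhibitor plus nocodazole replicate 1 lay nearer the nocodazole libraries than its group did for several of the genes below, and its values are given there. As these are bulk samples, fewer cells of a type and less RNA per cell cannot be told apart.

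Per kilobase of exon, the highest levels in the DMSO group belonged to a mix of basement membrane, type VI, type XI and neuronal collagens. Col4a2, a chain of the basement membrane network, led with 6.16 CPM per kilobase in DMSO, followed by the type VI chain Col6a2 with 3.07, the fibrillar chain Col11a2 with 2.40 and the neuronal transmembrane collagen Col25a1 with 2.37. Col5a1, Col26a1 and Col4a1 came next with 1.95, 1.46 and 1.33 CPM per kilobase. Col6a2 and Col5a1 are also known from fibroblasts, and with them the 11 collagens known from fibroblasts summed to 50.7 to 54.0 CPM in the DMSO libraries. The type I and III collagens and the fibroblast matrix proteins stood lower on the scale per kilobase, with 0.0945 for Col1a1, 0.0331 for Col1a2, 0.0357 for Col3a1, 0.0764 for Fn1, 0.152 for Sparc and 0.181 for Dcn. Lumican had 0 to 2 counts in each library.

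**Figure D1:**
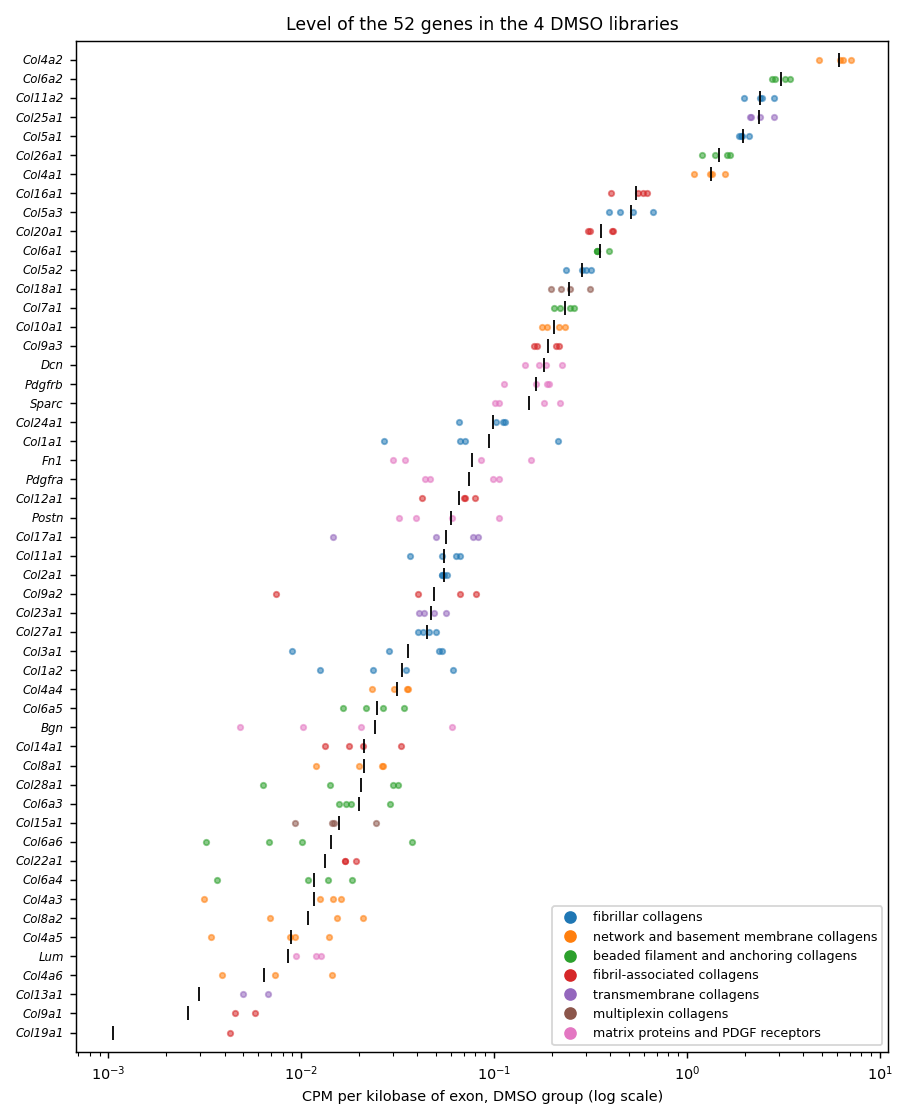
Level of each collagen and matrix gene in the 4 DMSO libraries, in CPM per kilobase of exon on a log axis, with 1 point per library above 0, a tick for the group mean and colours for the class of collagen. Col4a2 stands highest at a mean of 6.16, and the means of Col1a1, Col1a2 and Col3a1 are 0.0945, 0.0331 and 0.0357.

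The labels give neurons, and the marker genes bear on that. All 12 neuronal markers were present, with a summed level of 12949 to 15819 CPM per library. The 21 further fibroblast markers summed to 135 to 433 CPM, mostly from Fstl1 and Thy1. Of the 21, 17 were below 1 CPM on average, and without Fstl1 and Thy1, set aside after their values were seen, the sum was 7.45 to 14.6 CPM. Pericyte and smooth muscle markers summed to 9.45 to 57.5 CPM. Endothelial markers summed to 0.683 to 1.43 CPM and macrophage markers to 1.57 to 5.59 CPM. The 12 markers of Schwann cells and satellite glia summed to 76.4 to 176 CPM, and 9 of them were below 1 CPM.

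Nocodazole without the inhibitor raised Col11a2, Col26a1 and several scarcer collagens, while the type I and III collagens did not pass the test. Of the 39 genes tested, 10 rose and 1 fell. The 10 include Col14a1, which passed the filter on low counts mainly through nocodazole libraries. Over all genes tested, 37.5% were called in this comparison, 18.6% higher and 19.0% lower. Whether the share of these genes differs from that was not tested, and only the identity of the genes is described. Among genes above 1 CPM, the largest changes were those of Col18a1, Col20a1, Col5a3, Dcn and Col11a2, with log2 values from 1.25 to 1.92. Col25a1 was the gene that fell.

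Col11a2, a chain of type XI collagen, which is best known from cartilage where it sits inside fibrils, had the highest level among the genes that rose. It was at 16.4, 13.5, 19.3 and 16.8 CPM in DMSO and at 36.8, 34.1, 49.0 and 37.9 CPM in nocodazole. With the inhibitor it was at 13.8, 17.2, 18.0 and 13.0 CPM, and with inhibitor plus nocodazole at 18.4, 15.8, 13.6 and 13.4 CPM. The 4 nocodazole libraries lay above all 12 others, which overlapped among themselves. The log2 change with nocodazole was 1.25 ± 0.142 (SE, edgeR adjusted p = 4.82e-06). Its partner chain Col11a1 was scarce, at 0.554 ± 0.273 CPM (SD, n = 4) in nocodazole and 0.701 ± 0.172 CPM in DMSO, and did not pass (log2 change -0.35 ± 0.368).

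Col5a3, a type V chain known from Schwann cells, was also highest with nocodazole. Its values were 3.58, 2.69, 4.54 and 3.04 CPM in DMSO and 13.4, 10.9, 14.0 and 11.4 CPM in nocodazole. The inhibitor group had 3.86, 4.48, 4.67 and 4.41 CPM and the inhibitor plus nocodazole group 6.17, 5.11, 5.43 and 5.17 CPM. No nocodazole library overlapped another group, and the libraries with both agents lay just above those with the inhibitor alone. Col5a3 rose with nocodazole by a log2 value of 1.84 ± 0.145 (edgeR adjusted p = 1.29e-07). The other type V chains did not pass: Col5a1 changed by 0.33 ± 0.154 and Col5a2 by 0.42 ± 0.172, although DESeq2 called Col5a2. The ratio of Col5a1 to Col5a3, both per kilobase, was 2.86 to 5.27 in the DMSO libraries and 1.09 to 1.63 in the nocodazole libraries.

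Col18a1 encodes the chain of type XVIII collagen, a proteoglycan of basement membranes whose end fragment is endostatin. It was at 1.56, 1.38, 2.21 and 1.74 CPM in DMSO and at 5.96, 5.53, 7.41 and 7.38 CPM in nocodazole. The inhibitor group had 2.12, 1.89, 1.72 and 1.92 CPM, and the group with both agents 2.02, 2.66, 1.95 and 2.20 CPM. The lowest nocodazole library was above the highest of the 12 others. With nocodazole Col18a1 rose by 1.92 ± 0.163 (log2, edgeR adjusted p = 2.59e-07).

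Col20a1, a collagen that associates with fibrils, was at 2.12, 1.58, 2.10 and 1.61 CPM in DMSO and at 7.64, 7.33, 7.28 and 5.01 CPM in nocodazole. The inhibitor group had 2.12, 3.6, 3.35 and 1.54 CPM, and the group with both agents 4.64, 2.38, 2.51 and 1.95 CPM. The nocodazole libraries did not overlap the others, but the distance was small between nocodazole replicate 4 and the highest library with both agents, replicate 1. Nocodazole raised Col20a1 by 1.88 ± 0.283 (edgeR adjusted p = 7.7e-05). Col20a1 shares 1.54% of its exon length with another annotated gene on the same strand.

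Col26a1, a beaded filament collagen, and Col7a1, which builds anchoring fibrils in skin, rose less. Col26a1 was at 11.4, 9.75, 13.1 and 13.6 CPM in DMSO and at 20.3, 22.0, 19.6 and 16.1 CPM in nocodazole, a change of 0.70 ± 0.176 (edgeR adjusted p = 0.00477). Col7a1 was at 2.68, 2.26, 2.53 and 2.11 CPM in DMSO and at 4.30, 6.01, 5.47 and 3.25 CPM in nocodazole, a change of 0.99 ± 0.257 (edgeR adjusted p = 0.00621). In both genes the DMSO and nocodazole libraries did not overlap. A further 3 collagens below 1 CPM on average were also called, and are named after their values were seen: Col4a4 (2.02 ± 0.243, edgeR adjusted p = 8.87e-06), Col6a6 (2.75 ± 0.53, edgeR adjusted p = 0.000667) and Col14a1 (1.28 ± 0.479, edgeR adjusted p = 0.0453). The Col14a1 call was lost without filter, with DESeq2 and in 7 of the fits that left out 1 library.

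**Figure D2:**
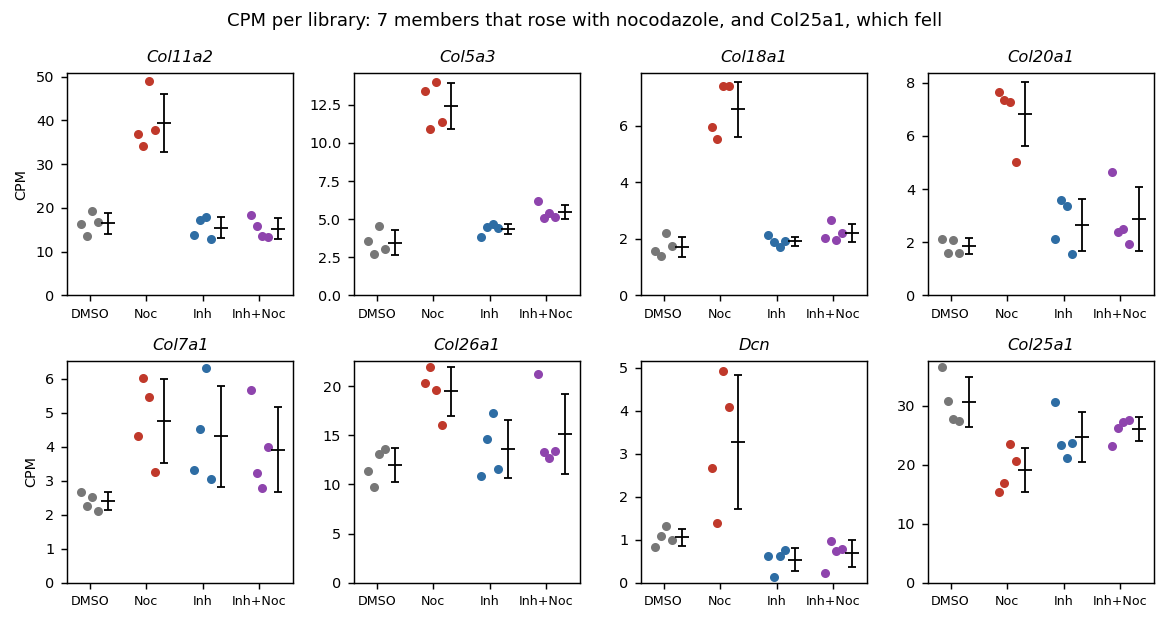
CPM per library of 7 genes that rose with nocodazole and of Col25a1, which fell, with 1 point per library and a bar for the mean and SD of the 4 libraries of a group. In Col5a3, Col18a1 and Col11a2 the nocodazole libraries stand above all others, and in Col25a1 they lie below the DMSO libraries.

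Decorin was the only one of the 8 matrix and receptor genes called higher with nocodazole. Dcn, a small proteoglycan that binds collagen fibrils and is secreted mostly by fibroblasts, was at 0.840, 1.08, 1.31 and 0.993 CPM in DMSO and at 2.68, 1.38, 4.93 and 4.10 CPM in nocodazole. The inhibitor group had 0.633, 0.145, 0.626 and 0.760 CPM, and the group with both agents 0.216, 0.971, 0.745 and 0.791 CPM. The nocodazole libraries were the highest, and replicate 2 lay close to the DMSO libraries. Decorin rose by 1.62 ± 0.424 (log2, edgeR adjusted p = 0.00665). Its close relative Bgn, at 1 to 17 counts per library, changed by 0.85 ± 0.653 and was not called.

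The type I and III collagens, which are the main product of fibroblasts, varied widely between libraries of a group. Col1a1 was at 0.435, 0.176, 1.41 and 0.465 CPM in DMSO and at 0.828, 1.79, 0.786 and 1.79 CPM in nocodazole. With the inhibitor it was at 0.551, 2.12, 0.751 and 1.06 CPM, and with both agents at 1.23, 0.407, 0.155 and 0.480 CPM. All 4 groups overlapped, and the nocodazole change of 1.01 ± 0.591 was not called (edgeR adjusted p = 0.193). Col1a2, the second chain of type I, changed by 0.68 ± 0.569 and Col3a1 by 0.52 ± 0.495, neither of them called. Without DMSO replicate 3, Col1a1 and Fn1 were called higher with nocodazole, so 1 library decided these calls.

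Fibronectin and osteonectin, secreted matrix proteins of fibroblasts and many other cells, did not pass the test. Fn1 was at 0.995, 0.351, 1.82 and 0.403 CPM in DMSO and at 1.08, 1.82, 1.42 and 1.69 CPM in nocodazole, a change of 0.72 ± 0.487. Sparc was at 0.684, 0.381, 0.83 and 0.403 CPM in DMSO and at 0.717, 1.08, 0.725 and 0.716 CPM in nocodazole, with a change of 0.48 ± 0.379. Postn, a matricellular protein of fibroblasts, was at 0.517 ± 0.289 CPM (SD, n = 4) in DMSO and 0.534 ± 0.199 in nocodazole (log2 change 0.01 ± 0.364). Neither receptor gene was called: Pdgfra, which marks fibroblasts, changed by 0.34 ± 0.407 and Pdgfrb, which marks pericytes, by -0.56 ± 0.279.

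Some of the fibroblast transcripts were high in the same library of a group. Of Col1a1, Col1a2, Col3a1, Col6a3, Fn1 and Sparc, 5 of 6 were highest in DMSO replicate 3, 6 of 6 in nocodazole replicate 2, 6 of 6 in inhibitor replicate 2 and 5 of 6 in inhibitor plus nocodazole replicate 1. The 6 genes summed to 1.49 to 5.67 CPM in the DMSO libraries, 3.78 to 6.91 CPM in nocodazole, 1.62 to 7.82 CPM in inhibitor and 0.962 to 3.32 CPM in inhibitor plus nocodazole. These 6 genes were put together after their values were seen, so the pattern is a description. Other fibroblast genes shared it only in part. Bgn was highest of its group in DMSO replicate 3 (0.369 CPM) and inhibitor replicate 2 (0.494 CPM). It was not highest in nocodazole replicate 2 or inhibitor plus nocodazole replicate 1. Dcn was highest of its group in DMSO replicate 3. However, Dcn was lowest of its group in nocodazole replicate 2 (1.38 CPM), inhibitor replicate 2 (0.145 CPM) and inhibitor plus nocodazole replicate 1 (0.216 CPM). The 21 further fibroblast markers also had their lowest sums of the group there, with 155, 154 and 135 CPM, mostly from Fstl1 and Thy1. Without Fstl1 and Thy1 the sums in these libraries were 9.72, 8.37 and 7.45 CPM. Only the last of these was the lowest of its group. Col6a2 and Col5a1 were also lowest of their group in these libraries. They were at 14.7 and 14.8 CPM in nocodazole replicate 2 and at 15.4 and 10.6 CPM in inhibitor replicate 2. In inhibitor plus nocodazole replicate 1 they were at 14.2 and 10.2 CPM. The part of the cell makeup of the cultures in these values was not tested.

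**Figure D3:**
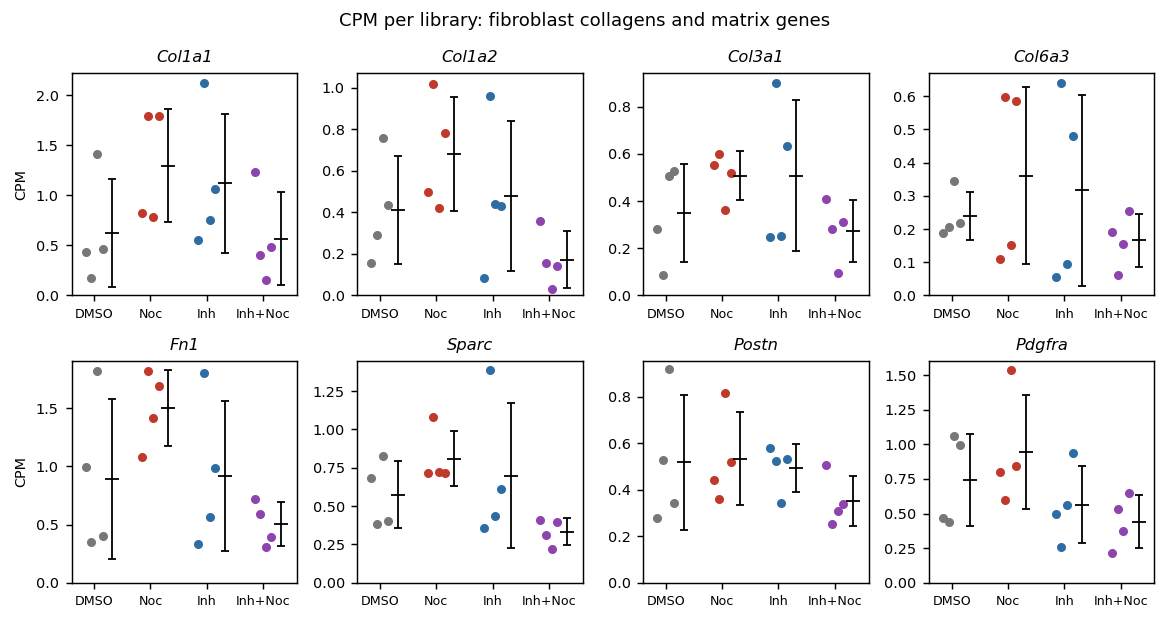
CPM per library of 8 fibroblast matrix genes, with 1 point per library and a bar for the mean and SD of the 4 libraries of a group. Inhibitor replicate 2 gives the highest point of its group in Col1a1, Col1a2, Col3a1, Col6a3, Fn1 and Sparc.

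Of the 4 collagens known from neurons, Col25a1 was the one called with nocodazole. Col25a1 encodes a transmembrane collagen of neurons whose shed part is found in amyloid plaques and which motor axons need to innervate muscle. It was at 36.6, 30.8, 27.8 and 27.4 CPM in DMSO and at 15.4, 16.9, 23.5 and 20.7 CPM in nocodazole. The inhibitor group had 30.7, 23.3, 21.1 and 23.7 CPM, and the group with both agents 23.2, 26.3, 27.2 and 27.6 CPM. Every nocodazole library lay below every DMSO library, while the inhibitor groups overlapped both. The log2 change with nocodazole was -0.68 ± 0.136 (edgeR adjusted p = 0.000889). Of the 12 neuronal markers, 6 also fell in this comparison and none rose, beside 19.0% and 18.6% of all genes tested. Elavl4 had a log2 change of -1.31, Rbfox3 of -0.83 and Isl1 of -0.55. Their part in the Col25a1 value was not tested.

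Col24a1, a fibrillar collagen of developing bone that is also found in neurons, was at 0.498, 0.849, 0.783 and 0.869 CPM in DMSO and at 1.08, 0.957, 1.81 and 0.846 CPM in nocodazole, a change of 0.64 ± 0.286 that was not called. The inhibitor group had 0.744, 0.581, 0.689 and 0.532 CPM, and the group with both agents 0.264, 0.564, 0.217 and 0.396 CPM. Col23a1, a transmembrane collagen, was at 0.271 ± 0.039 CPM (SD, n = 4) in DMSO and 0.359 ± 0.135 in nocodazole and was not called. Col19a1, known from interneurons that build synapses, had 0 to 6 counts in each library and was not tested.

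The start regions of 2 of these genes are printed because Col25a1 rose and Col24a1 fell when the inhibitor was added to nocodazole, as described below, and each holds a recognisable stretch, chosen after the sequences were seen. The sequences come from RefSeq on GRCm38.p6, 5' to 3', and the last 30 bases start at the first transcribed base. In Col25a1 (chr3:130180595-130180874, plus strand) capitals mark a stretch of 16 bases that occurs in 2 copies, which begin 161 and 75 bases before the start. A direct repeat of that length was present in 2.4% of the 32851 promoter windows of the mouse table.
Col25a1: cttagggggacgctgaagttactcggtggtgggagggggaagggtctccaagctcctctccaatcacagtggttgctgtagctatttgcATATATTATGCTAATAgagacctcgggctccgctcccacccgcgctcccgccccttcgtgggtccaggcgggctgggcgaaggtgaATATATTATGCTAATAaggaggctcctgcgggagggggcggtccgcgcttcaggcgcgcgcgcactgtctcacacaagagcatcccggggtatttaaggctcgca
In Col24a1 (chr3:145292222-145292501, plus strand) capitals mark a cyclic AMP response element, TGACGTCA, the letters that CREB and ATF factors bind, which begins 7 bases before the start. This motif is its own reverse complement and was present in 1.79% of all windows.
Col24a1: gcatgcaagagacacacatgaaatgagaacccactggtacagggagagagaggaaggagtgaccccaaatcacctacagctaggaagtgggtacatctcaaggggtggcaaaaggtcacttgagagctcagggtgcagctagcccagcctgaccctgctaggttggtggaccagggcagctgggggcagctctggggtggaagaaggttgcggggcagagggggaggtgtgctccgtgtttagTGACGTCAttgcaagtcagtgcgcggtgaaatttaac

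Windows were found for 39 of the 52 genes, 43 in number. The AP-1 letters TGANTCA, which JUN and FOS proteins bind, were sought on both strands. They occurred in 7.81% of all windows and in 1 of the 43, that of Col6a1. The letters TGATGNAA, bound by ATF4 with C/EBP partners, occurred in 3.97% of all windows and in none of the 43. TGACGTCA was found in Col24a1 alone among these genes. No match says only that these letters are not in this window.

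The basement membrane collagens Col4a1 and Col4a2, whose chains combine in a single helix, changed little with nocodazole. Col4a2 was at 40.8 ± 6.43 CPM (SD, n = 4) in DMSO, 38.9 ± 4.33 in nocodazole, 33.8 ± 4.13 with the inhibitor and 32.9 ± 3.56 with both agents. Col4a1 was at 9.91 ± 1.46, 8.99 ± 2.18, 8.51 ± 1.77 and 8.74 ± 2.22 CPM in the same order. The log2 change with nocodazole was -0.07 ± 0.117 for Col4a2 and -0.14 ± 0.193 for Col4a1. Neither gene was called in any comparison with all 16 libraries. With the inhibitor alone Col4a2 changed by -0.27 ± 0.117, and it was called lower when DMSO replicate 2 was left out. The ratio of Col4a2 to Col4a1 per kilobase was 3.56 to 6.01 over the 16 libraries, with a median of 4.61. The 2 genes start back to back on opposite strands, which is why both start regions are shown: capitals mark the 38 bases that both printed windows hold, each read on its own strand (Col4a1 at chr8:11312797-11313076, minus strand, and Col4a2 at chr8:11312555-11312834, plus strand).
Col4a1: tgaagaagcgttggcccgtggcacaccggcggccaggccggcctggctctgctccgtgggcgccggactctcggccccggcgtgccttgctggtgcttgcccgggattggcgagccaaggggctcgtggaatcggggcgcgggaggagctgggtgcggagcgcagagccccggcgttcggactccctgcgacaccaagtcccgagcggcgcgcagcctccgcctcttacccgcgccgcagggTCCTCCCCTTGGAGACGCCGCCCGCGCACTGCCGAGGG
Col4a2: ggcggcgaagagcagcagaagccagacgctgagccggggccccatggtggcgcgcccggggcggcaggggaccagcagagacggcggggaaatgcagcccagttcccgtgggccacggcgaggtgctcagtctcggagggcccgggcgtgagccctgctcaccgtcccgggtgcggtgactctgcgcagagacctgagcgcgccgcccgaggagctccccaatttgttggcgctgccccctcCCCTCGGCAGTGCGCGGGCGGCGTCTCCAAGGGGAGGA

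Type VI chains were uneven. Col6a2 was at 25.6 ± 2.65 CPM (SD, n = 4) in DMSO, 23.0 ± 9.01 in nocodazole, 21.6 ± 4.40 with the inhibitor and 18.3 ± 3.15 with both agents. Col6a1, its obligate partner, was at 1.55 ± 0.118 CPM in DMSO, and Col6a3, the largest chain, at 0.239 ± 0.0724. Per kilobase, Col6a2 exceeded Col6a1 by 6.02 to 10.8 times over the 16 libraries, with a median of 9.17. None of the 3 genes was called in any comparison.

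The inhibitor without nocodazole changed 1 of the 39 tested genes. Col7a1 was at 3.31, 4.53, 6.32 and 3.06 CPM with the inhibitor, above all 4 DMSO libraries, a log2 change of 0.84 ± 0.257 (edgeR adjusted p = 0.0408). Over all genes tested, 13.0% were called in this comparison, 5.78% higher and 7.24% lower. The Col7a1 call was lost in 8 of the fits that left out 1 library, where its adjusted p reached 0.151 without inhibitor replicate 3. Col5a1, at 14.3, 10.6, 11.6 and 12.4 CPM against 15.7, 17.7, 16.2 and 16.4 CPM in DMSO, did not overlap between the groups but was not called (log2 change -0.43 ± 0.156, edgeR adjusted p = 0.076). The fibroblast genes Col1a1 (0.80 ± 0.594), Col1a2 (0.17 ± 0.585), Col3a1 (0.52 ± 0.491), Fn1 (0.02 ± 0.503) and Sparc (0.27 ± 0.382) were not called.

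In the presence of the inhibitor, nocodazole called none of the 39 tested genes by edgeR, with 0.0835% of all genes called, 0.0783% higher and 0.00522% lower. By unadjusted p 3 of the 39 tested were below 0.05, beside 1146 of all 19156 genes tested. DESeq2 also called 0 of the 39, beside 111 of all genes. The log2 change was -0.01 ± 0.143 for Col11a2, 0.33 ± 0.144 for Col5a3, 0.20 ± 0.165 for Col18a1, 0.13 ± 0.279 for Col20a1 and 0.08 ± 0.135 for Col25a1.

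Among nocodazole-treated cultures, those with the inhibitor had lower levels of 13 of the 39 tested genes and higher levels of 3. Over all genes tested, 33.9% were called, 17.7% higher and 16.2% lower, and whether the share of these genes differs from that was not tested. The log2 difference was -1.57 ± 0.16 for Col18a1 (edgeR adjusted p = 1.66e-06), -1.36 ± 0.143 for Col11a2 (2.09e-06), -1.18 ± 0.141 for Col5a3 (7.78e-06) and -1.24 ± 0.273 for Col20a1 (0.00212). The same 4 genes were among those that had shown the rise with nocodazole, and both comparisons use the nocodazole libraries. Col26a1 (-0.36 ± 0.174, edgeR adjusted p = 0.125), Col7a1 (-0.28 ± 0.25, 0.434) and Col14a1 (-0.99 ± 0.467, 0.115) had also risen with nocodazole. They were not called lower with the inhibitor. Decorin had the largest difference among the genes above 1 CPM, -2.28 ± 0.445 (edgeR adjusted p = 0.000811), and its 2 groups did not overlap. Col24a1, the fibrillar collagen also found in neurons, differed by -1.71 ± 0.31 (edgeR adjusted p = 0.000443), again without overlap. Col5a1, the main type V chain, was at 18.6, 14.8, 28.6 and 21.1 CPM in nocodazole and at 10.2, 14.1, 13.1 and 12.4 CPM with both agents. The log2 difference was -0.74 ± 0.156 (edgeR adjusted p = 0.00149).

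Fibroblast genes contributed 3 further calls in this comparison, and these rested on few libraries. Col1a2 was at 0.496, 1.02, 0.423 and 0.781 CPM in nocodazole and at 0.360, 0.157, 0.0310 and 0.141 CPM with both agents, a change of -1.89 ± 0.637 (edgeR adjusted p = 0.0297). Fn1 was at 0.721, 0.595, 0.310 and 0.396 CPM with both agents (-1.55 ± 0.517, edgeR adjusted p = 0.0285) and Sparc at 0.408, 0.313, 0.217 and 0.396 CPM (-1.25 ± 0.403, edgeR adjusted p = 0.0235). In each of the 3 genes the nocodazole libraries lay above those with both agents. The calls of all 3 were lost without nocodazole replicate 2 (adjusted p = 0.0854, 0.0641 and 0.0703) and without inhibitor plus nocodazole replicate 3 (0.0803, 0.0788 and 0.0674). The related Col1a1 (-1.14 ± 0.598), Col3a1 (-0.86 ± 0.51), Postn (-0.58 ± 0.376), Bgn (-0.93 ± 0.662) and Pdgfra (-1.10 ± 0.431, edgeR adjusted p = 0.0582) were not called, although Pdgfra was called lower by DESeq2 and in 4 of the fits that left out 1 library. Of the 11 collagens known from fibroblasts, 2 were lower and none higher, beside 16.2% and 17.7% of all genes tested. The number that was lower is near the background. Their median log2 change was -0.74 beside 0.00 over all genes tested.

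The genes that were higher with the inhibitor were Col25a1 and, below 1 CPM on average and named after their values were seen, Col11a1 and Col10a1. Col25a1 was higher by 0.45 ± 0.136 (edgeR adjusted p = 0.0167), with a slight overlap of the groups through nocodazole replicate 3. That call was lost without nocodazole replicate 1 (adjusted p = 0.0607) or replicate 2 (0.0508). Of the 12 neuronal markers, 6 were also higher and none lower in this comparison, beside 17.7% and 16.2% of all genes tested. Their log2 differences were 1.53 for Elavl4, 0.74 for Isl1 and 0.73 for Rbfox3. Their part in the Col25a1 value was not tested. Col6a5, Col6a6 and Col4a4, also below 1 CPM, had log2 differences of -1.15 ± 0.363, -1.38 ± 0.461 and -1.29 ± 0.229. Of these low genes, Col4a4 alone was called in every fit that left out 1 library. Col11a1, Col10a1, Col6a5 and Col6a6 each lost the call in at least 3 such fits.

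The test of whether the inhibitor altered the nocodazole change itself, the interaction, called 9 of the 39 tested genes, 8 lower and 1 higher. Over all genes tested 18.7% were called, 9.20% lower and 9.52% higher, and whether the share of these genes differs was not tested. The interaction was -1.51 ± 0.203 for Col5a3 (edgeR adjusted p = 0.000137), -1.72 ± 0.231 for Col18a1 (0.000135), -1.27 ± 0.201 for Col11a2 (0.000517) and -1.75 ± 0.396 for Col20a1 (0.00627). It was -1.54 ± 0.352 for Col4a4 (edgeR adjusted p = 0.00686) and -2.72 ± 0.739 for Col6a6 (0.0176), whose adjusted p was 0.0526 without inhibitor replicate 2. Col24a1 (-1.47 ± 0.431, edgeR adjusted p = 0.0264) lost its call in 4 of the fits that left out 1 library, and Col7a1 (-1.12 ± 0.359, edgeR adjusted p = 0.039) lost it in 12. In the single call in the other direction, Col25a1 had an interaction of 0.76 ± 0.191 (edgeR adjusted p = 0.0117), the nocodazole change being -0.68 without the inhibitor and 0.08 with it. Decorin was not called (-1.32 ± 0.648, edgeR adjusted p = 0.165), and its log2 difference with the inhibitor alone was -0.96 ± 0.469, also not called. Nor were Col26a1 (-0.55 ± 0.248, edgeR adjusted p = 0.135) and Col14a1 (-1.04 ± 0.716, 0.327) called in the interaction. Without inhibitor plus nocodazole replicate 1, in which Col26a1 was at 21.2 CPM against 12.7 to 13.4 CPM in the rest of its group, 12 genes were lower, with Col1a1, Col1a2, Col26a1 and Col9a3 added. Without DMSO replicate 3, Col1a1, Fn1, Sparc and Bgn were added. The interaction of the type I collagens thus depended on which library was left out.

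**Figure D4:**
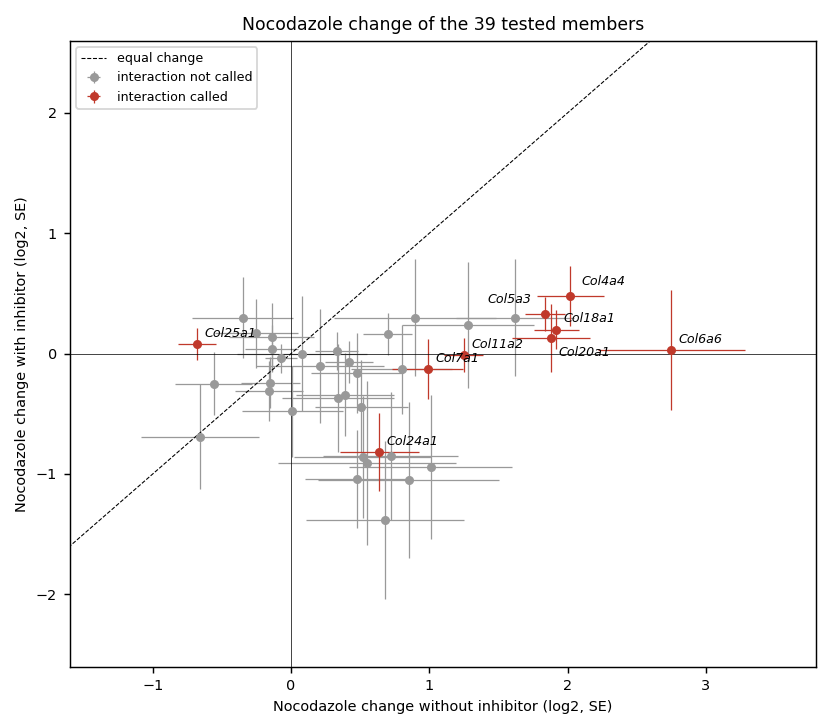
Log2 change with nocodazole in cultures with the inhibitor (vertical axis) against that in cultures without it (horizontal axis) for the 39 genes tested, with bars for the SE and a dashed line of equal change. The 9 genes with a called interaction, in red, lie away from the line, and most of them lie near 0 on the vertical axis.

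Other genes of the collagen pathway are given by list. Beside each count stand the shares of all genes tested, of which 18.6% rose and 19.0% fell with nocodazole, and 17.7% were higher and 16.2% lower with the inhibitor in nocodazole. Whether a list differs from these shares was not tested. Of 13 tested receptors for collagen and fibronectin, 8 rose with nocodazole (18.6% of all genes rose) and none fell (19.0%), with a median log2 change of 0.84 beside 0.01 over all genes. Itga5, the fibronectin receptor subunit, was at 0.591, 0.293, 0.737 and 0.682 CPM in DMSO and at 9.30, 8.47, 6.83 and 5.50 CPM in nocodazole, a change of 3.69 ± 0.482 (edgeR adjusted p = 1.98e-05). Ddr2, a receptor kinase for fibrillar collagen, was at 40.3, 30.3, 45.8 and 43.7 CPM in DMSO and at 90.9, 87.3, 78.6 and 69.1 CPM in nocodazole, a change of 1.02 ± 0.166. Itgav, an integrin subunit for fibronectin and vitronectin, rose by 0.80 ± 0.232. With the inhibitor present as well, 8 of the 13 were lower than with nocodazole alone (16.2% of all genes) and 1, Ddr1, was higher (17.7%). Inhibitor plus nocodazole replicate 1 again lay near the nocodazole libraries, with 74.7 CPM of Ddr2 against 44.1 to 49.4 CPM in the rest of its group.

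Of 24 tested genes that fold and process collagen, 5 rose and 2 fell with nocodazole, beside 18.6% and 19.0% of all genes. The number that rose is near the background, and the median log2 change was 0.03 beside 0.01. The prolyl 4-hydroxylase subunits P4ha1 and P4ha2, which stabilise the triple helix, rose by 0.73 ± 0.101 and 1.00 ± 0.154, and the procollagen C-proteinase Bmp1 by 0.88 ± 0.137. Colgalt2, which adds galactose to collagen, fell by 0.90 ± 0.197. With the inhibitor alone 3 fell (7.24% of all genes), among them Bmp1 by 0.62 ± 0.14. Among nocodazole-treated cultures 9 were lower with the inhibitor (16.2% of all genes) and 1 higher (17.7%).

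Of 14 tested laminin, nidogen and other basement membrane genes, 7 rose and 2 fell with nocodazole, beside 18.6% and 19.0% of all genes. Their median log2 change was 0.70 beside 0.01. Lama1 rose by 1.82 ± 0.377 and Lamc1 by 0.85 ± 0.134. Lamb1 fell by 1.52 ± 0.323, being at 38.8, 38.7, 32.4 and 39 CPM in DMSO and at 9.16, 9.63, 16.7 and 16.4 CPM in nocodazole, and Lama3 changed by -1.33 ± 0.283. In nocodazole, none of the 14 was higher with the inhibitor (17.7% of all genes) and 7 were lower (16.2%). Proteases and their inhibitors were mixed, with 2 higher and 4 lower of 11 with nocodazole (18.6% and 19.0% of all genes). Timp3, an inhibitor of matrix metalloproteinases, fell by 2.17 ± 0.471 with the inhibitor alone and fell by 3.02 ± 0.496 with the inhibitor in nocodazole. The gelatinase Mmp2 fell by 1.46 ± 0.44 in the latter.

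Growth factor pathways that act on fibroblasts are represented by TGF-beta and PDGF genes. Of 14 tested genes of the TGF-beta pathway, which drives collagen transcription in fibroblasts, 6 rose and 2 fell with nocodazole, beside 18.6% and 19.0% of all genes, with a median log2 change of 0.66 beside 0.01. Skil, a feedback repressor of SMAD proteins, rose by 1.09 ± 0.175 and Smad3 by 0.93 ± 0.194, while Smad2 fell by 0.33 ± 0.0739. In nocodazole, 8 of the 14 were lower and 2 higher with the inhibitor, beside 16.2% and 17.7% of all genes. Of 3 tested PDGF ligand genes, Pdgfc rose and Pdgfa and Pdgfb fell with nocodazole. The ligand gene Pdgfa, which signals to Pdgfra, was at 66.0, 68.9, 58.6 and 68.7 CPM in DMSO and at 33.2, 38.8, 32.7 and 35.7 CPM in nocodazole, a change of -0.90 ± 0.0722 (edgeR adjusted p = 1.47e-07). With both agents it was at 60.8, 68.3, 75.3 and 68.5 CPM, where the inhibitor group had 66.2, 64.8, 65.1 and 67.4 CPM.

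Markers of other cells were mixed. Of 11 tested further fibroblast markers, 2 rose (Fbln5 and Fbn1) and 2 fell (Twist2 and Loxl1) with nocodazole. Beside these stand 18.6% and 19.0% of all genes, so both counts are near the background. Their median log2 change was -0.24 beside 0.01. Fbn1, the fibrillin of elastic microfibrils, rose by 0.74 ± 0.182, and Twist2, a mesenchymal transcription factor, fell by 2.36 ± 0.417. Of 9 tested pericyte and smooth muscle markers none was called, beside 37.5% of all genes. Of 5 tested glial markers, Apoe (1.00 ± 0.281) and Erbb3 rose and Mbp (-0.40 ± 0.0766) fell. Of 3 tested macrophage markers 1 rose, Cd68, a lysosomal protein, by 2.34 ± 0.433. Of 7 tested proliferation markers 2 rose, Ccnb1 and Ccna2, the latter a cyclin that rose by 0.92 ± 0.22. None of these macrophage and proliferation markers fell. The shares of all genes were again 18.6% and 19.0%. In nocodazole, the cultures with the inhibitor had less Cd68 (-1.33 ± 0.401), Aif1 (-0.58 ± 0.206), Apoe (-0.86 ± 0.279) and Fbn1 (-0.77 ± 0.183). Erbb3 and Fbln5 were also called lower, while Twist2 was higher (1.78 ± 0.426). Over all genes, 16.2% were lower and 17.7% higher. The lower markers were 2 of 3 macrophage, 2 of 5 glial, 2 of 11 further fibroblast and 1 of 7 proliferation markers, and no pericyte marker. The part of these markers in the collagen values was not tested.

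**Figure D5:**
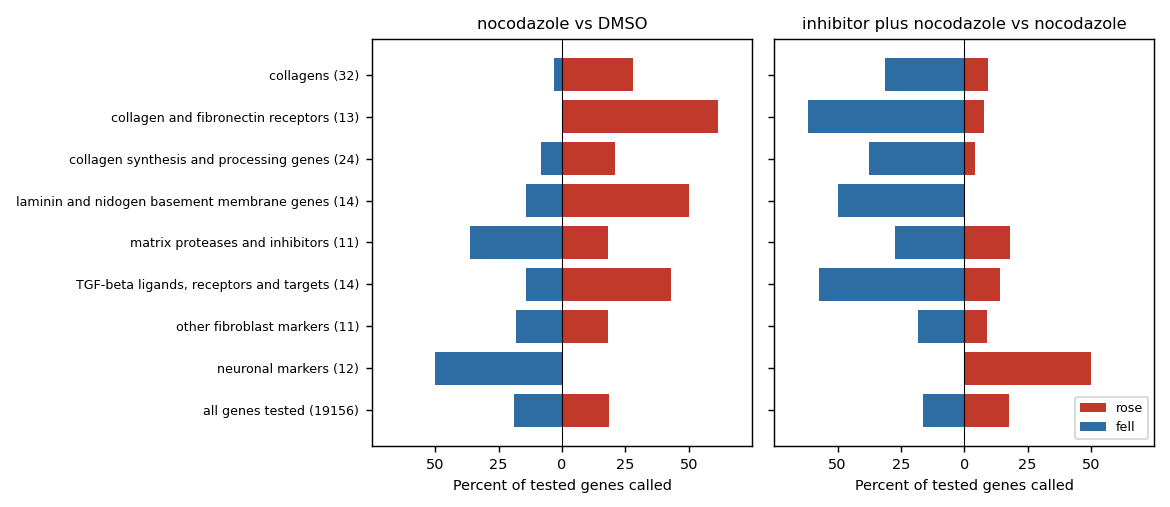
Percent of the tested genes of each list that rose (right) or fell (left) in 2 comparisons, with the number tested in brackets and all genes tested as the lowest bar. With nocodazole, receptors for collagen and fibronectin show 8 of 13 higher and none lower.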

How the data were processed

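RNA was sequenced from 16 samples after removal of ribosomal RNA, per the labels' protocols. The authors deposited a table of whole-number counts per gene, with reads handled by STAR and Salmon against GRCm39, per the submitters' processing notes. Versions, strand settings and which tool made the counts are not given in the sources used here, so genes that share exons or sequence with others carry that uncertainty. Symbols came from a gene name table (52080 of 55356 identifiers matched), and exon lengths from GENCODE M21 on GRCm38, used only for levels per kilobase. Counts were tested with edgeR 4.0.16 in R 4.3.3: TMM library sizes, the filterByExpr filter (19156 genes), 1 mean per group, a quasi-likelihood test and Benjamini-Hochberg adjustment. The procedure was tested on simulated data. Alternatives were RLE sizes, DESeq2 1.42.0, no filter, a replicate block and leaving out each library. The genes always named were the type I and III collagens, the 8 matrix and receptor genes and 4 neuronal collagens. To these came up to 8 called genes per direction and comparison, and up to 3 per other list, by size of change with a mean of at least 1 CPM. The genes and lists were chosen with earlier results of these data known. Replicates were not copies of each other.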

Additional observations from a re-analysis of the deposited data

Results flagged for a closer look

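In 9 genes the nocodazole change differed by the interaction test between cultures with and without the inhibitor. The interaction log2 value was -1.27 for Col11a2, -1.72 for Col18a1, -1.75 for Col20a1, -1.47 for Col24a1, -1.54 for Col4a4, -1.51 for Col5a3, -2.72 for Col6a6 and -1.12 for Col7a1, and 0.76 for Col25a1.

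In 7 of 112 groups of 4 libraries, 1 library stood apart from the rest of its group by Dixon's test, where chance gives about 1 in 20. They were Col20a1 in nocodazole replicate 4 (5.01 CPM, low), Col26a1 in inhibitor plus nocodazole replicate 1 (21.2 CPM, high), Col23a1 in the same library (0.144 CPM, low) and Sparc in nocodazole replicate 2 (1.08 CPM, high). The other 3 were single libraries with 1 count where the rest of the group had 0: Col19a1 in DMSO replicate 2 (0.0293 CPM), Lum in inhibitor replicate 1 (0.0275 CPM) and Lum in inhibitor plus nocodazole replicate 1 (0.024 CPM).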

How the results depend on the processing

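Of 37 called gene results, 24 were called under all 20 alternatives, and of 740 values 659 kept direction and call, 81 lost the call and 0 changed direction. The counts were 10 genes higher with nocodazole (9 to 12 when each library was left out in turn) and 1 lower (1 to 2), 1 higher with the inhibitor (0 to 1) and 0 lower (0 to 1), and 0 in either direction for nocodazole with the inhibitor. With the inhibitor in nocodazole 3 were higher (0 to 3) and 13 lower (8 to 15), and in the interaction 1 was higher (1 to 1) and 8 lower (6 to 12). The fewest lower, 8, came without inhibitor plus nocodazole replicate 3, and no gene was higher without nocodazole replicate 1. With DESeq2, 1 gene (Col5a1) was lower with the inhibitor. With the replicate number as a block, 0 were higher with the inhibitor, 10 higher and 1 lower with nocodazole, 2 and 14 for the inhibitor in nocodazole (Col10a1 and Col1a2, adjusted p 0.0581 and 0.0527, lost, and Col14a1 and Pdgfra gained), and 1 and 7 in the interaction. The numbers did not pair the samples. Deviations of log CPM from the group means correlated at -0.399 to 0.232 between same-numbered libraries of different groups (median 0.0261, 24 pairs). For pairs with different numbers the median was -0.0143. Genes below about 1 CPM rest on few counts, which limits what could be called.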
